A study of Mus musculus with 2 samples.

Results

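The 32 genes described here are interferon-stimulated genes, read in thymic epithelial cells of B6, BALB/c and NOD mice, 3 inbred strains. They were taken by symbol, and all 32 were found among the 55487 genes of the deposited matrix. The strains were represented by female mice aged 6 weeks, 2 of each, with no transgene, targeted allele or treatment named in the labels. Thymi were digested, leukocytes carrying CD45 were depleted, and medullary thymic epithelial cells (mTEC) were sorted that were low in MHC class II and negative for both Pdpn (podoplanin) and CD104. This sort holds mimetic cells, mTEC that express the genes of cell types outside the thymus. Each mouse carried its own hashtag antibody, and all 6 were captured as 1 pool in 1 droplet library, so the mice share every later step. Both NOD hashtags carry number 1 in a library title, but the design text names 2 mice per strain, so they were kept apart.

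Interferons are secreted proteins that signal through paired receptors and the JAK kinases. Types I and III activate a complex holding Stat2 and Irf9 that binds the interferon-stimulated response element. The induced genes include RNA and DNA sensors, transcription factors that amplify the response, and effectors that block viral replication or membrane-bound pathogens. Medullary thymic epithelium is known to express such genes without infection. The 32 genes comprised 3 sensors (Ddx58, Ifih1, Zbp1), 3 transcription factors (Stat2, Irf9, Irf7), 2 genes of ISGylation, which couples the small protein Isg15 to targets (Isg15, and Usp18, which removes it), 4 RNA-binding Ifit genes, 3 genes of the oligoadenylate synthetase (OAS) family, 5 interferon-inducible GTPases (Gbp2, Gbp3, Iigp1, Igtp, Irgm1) and 12 other effectors.

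The start regions of 4 members are shown because Isg15 differed between strains inside tuft-like cells, Ifit1 and Ifit3 lie near each other on chromosome 19 yet differed in the cell types that expressed them, and Igtp was highest in the tuft-like cells of BALB/c. Each runs 5′ to 3′ on the gene's strand, from 250 bases before the transcription start to 50 bases after it (RefSeq, GRCm38.p6). Isg15 lies on chr4:156200769-156201068 on the minus strand, Ifit1 on chr19:34640639-34640938 on the plus strand, Ifit3 on chr19:34583279-34583578 on the plus strand and Igtp on chr11:58199306-58199605 on the plus strand. Capitals mark matches on either strand to GAAA, any 2 bases and GAAA again, the core of the interferon-stimulated response element, with overlapping matches joined.
Isg15: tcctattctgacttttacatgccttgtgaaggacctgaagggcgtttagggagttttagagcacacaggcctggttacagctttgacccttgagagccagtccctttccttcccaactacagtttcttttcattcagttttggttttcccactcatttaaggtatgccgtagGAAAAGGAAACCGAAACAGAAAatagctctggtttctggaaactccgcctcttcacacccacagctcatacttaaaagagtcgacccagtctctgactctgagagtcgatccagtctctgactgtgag
Ifit1: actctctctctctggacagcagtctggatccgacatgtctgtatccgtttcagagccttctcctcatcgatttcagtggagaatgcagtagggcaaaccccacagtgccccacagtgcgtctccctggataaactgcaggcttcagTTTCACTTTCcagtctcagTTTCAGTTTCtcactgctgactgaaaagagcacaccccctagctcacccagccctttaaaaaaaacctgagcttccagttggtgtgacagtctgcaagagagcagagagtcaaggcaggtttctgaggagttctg
Ifit3: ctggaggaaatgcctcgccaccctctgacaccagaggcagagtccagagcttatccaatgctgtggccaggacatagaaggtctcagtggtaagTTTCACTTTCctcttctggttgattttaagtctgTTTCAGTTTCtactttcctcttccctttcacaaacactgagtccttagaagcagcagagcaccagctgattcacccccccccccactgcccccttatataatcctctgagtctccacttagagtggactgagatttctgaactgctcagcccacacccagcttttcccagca
Igtp: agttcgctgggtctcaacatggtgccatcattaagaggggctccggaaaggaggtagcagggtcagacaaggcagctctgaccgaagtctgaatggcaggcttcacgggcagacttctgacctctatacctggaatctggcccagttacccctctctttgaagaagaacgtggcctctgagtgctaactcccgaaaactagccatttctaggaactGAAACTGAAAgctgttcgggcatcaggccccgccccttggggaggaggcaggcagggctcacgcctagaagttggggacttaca
Isg15 held 3 overlapping matches, Ifit1 and Ifit3 held 2 each, and Igtp held 1. The first bases of the matches lay at -78 to -66 from the start in Isg15, -104 to -85 in Ifit1, -156 to -122 in Ifit3 and -34 in Igtp. The table held 25 start regions of 22 of the 32 members, and 14 of these 25 (56%) held the motif, against 3.44% of all 32851 start regions of the same length. A match is a run of letters, not a measured binding site.

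Of 2527 barcodes with at least 500 genes and under 15% mitochondrial UMIs, 1705 were assigned to a mouse by hashtag. A UMI is 1 captured RNA molecule, and levels are given as CPM, the counts scaled to a total of 1e6 UMIs in the cells named. Marker gates placed 1409 cells in 12 epithelial types, 38 in leukocyte types and 67 in several types at once, and 191 (median 4089 UMIs) passed no gate. The mice held 96 to 495 gated epithelial cells and 2180804 to 8763745 UMIs in them, with the fewest in NOD. Median UMIs per cell lay between 13501 and 14692 in the 6 mice. Types are called X-like from at least 3 markers, and the collagen VI-positive, Mybpc1-positive, Aire-positive, Ccl21a-high and cycling cells are called by their genes. Ccl21a is a chemokine of immature mTEC, and Aire drives tissue genes in mature ones. The tuft markers summed to 11714.8 CPM in tuft-like cells against 192.8 in the other epithelial cells, and Ptprc (CD45), which some tuft cells are known to express, to 30.3 CPM there and at most 5.31 in the other epithelial types. Of 4 markers of plasmacytoid dendritic cells, Siglech was at 0 in every mouse of the 6 types compared most closely below, but Klk1, which epithelia also express, was high in some sums. The 4 summed to 5.6 and 3596.4 CPM in the Aire-positive cells of B6, 376.2 and 4.9 in those of BALB/c, and 897.9 and 10.6 in the ciliated-like cells of BALB/c. Jchain, of plasma cells, reached high values in some sums: the 8 B or plasma markers summed to 10132.7 CPM in the collagen VI-positive cells of NOD mouse 1 and 36.9 in those of NOD mouse 2. Their part in the results was not tested.

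Member UMIs made up 2301 and 2617 CPM of the epithelial sums of B6. They made up 6345 and 6823 CPM in BALB/c, and in NOD 6972 and 7059 CPM. The B6 mice lay below all 4 others. Ifi27l2a, a small protein of the Ifi27 family, gave 33.5% of the member UMIs in B6, 44.5% in BALB/c and 45.0% in NOD.

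The cell types that carried these UMIs differed between the strains. In B6 the tuft-like cells, chemosensory cells of mucosal type, held 38.2% of the member UMIs and 42.9% of all UMIs. Keratinocyte-like cells followed with 18.6% of the member UMIs against 13.1% of all UMIs, and ciliated-like cells with 10.6% against 7.04%. Collagen VI-positive cells, 2.16% of the B6 cells, held 6.08% of the member UMIs and 1.34% of all UMIs. Of the 972 member UMIs in these 8 cells, 365 came from 1 cell of doubtful hashtag (share 81.5%). That cell held 28391 of their 87201 UMIs.
In BALB/c the tuft-like cells held 31.1% of the member UMIs and 36.3% of all UMIs. Ccl21a-high cells held 19.6% against 13.6%, ciliated-like cells 14.4% against 8.09%, and collagen VI-positive cells 10.7% against 4.85%. These last 3 types thus held more of the member UMIs than of all UMIs, and the Aire-positive cells less (6.64% against 12.0%).
In NOD the collagen VI-positive cells held the most, 29.6% of the member UMIs against 16.7% of all UMIs. Aire-positive cells held 21.6% against 22.3%, keratinocyte-like cells 14.99% against 17.7% and tuft-like cells 8.62% against 9.71%. Ccl21a-high and Mybpc1-positive cells of NOD (27 and 7 cells) also held more of the member UMIs than of all UMIs. Their summed levels were 10718 and 10185 CPM, against 7016.5 CPM over all gated epithelial cells of NOD. The shares rest on the sorted and hashtagged cells, so the make-up of the sort sets them in part: tuft-like cells were 55.4% of the gated cells in B6, 35.5% in BALB/c and 8.7% in NOD.

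**Figure D1:**
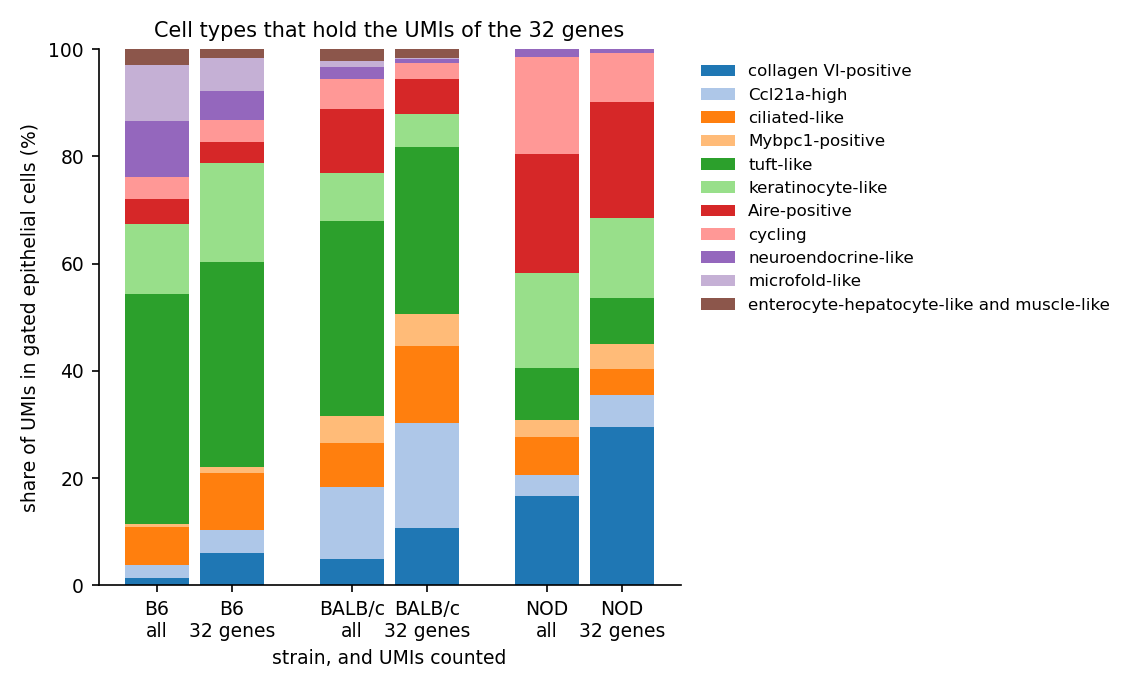
Share of all UMIs (left bar of each pair) and of the UMIs of the 32 genes (right bar) by epithelial cell type, with the mice of a strain pooled. Collagen VI-positive cells take a larger share of the member UMIs than of all UMIs in each strain (6.08% against 1.34% in B6, 29.6% against 16.7% in NOD). In B6, 365 of the 972 member UMIs of this type came from 1 cell of doubtful hashtag.

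Per cell type, with the mice of a strain pooled, the summed level was highest in collagen VI-positive cells in each strain. It was 10660 CPM in the 6 such cells of B6 mouse 2, 15716 and 14033 CPM in the BALB/c mice and 11504 and 13466 CPM in the NOD mice (20 to 40 cells each). B6 mouse 1 had 2 such cells, 1 of them of doubtful hashtag. Ccl21a-high cells of BALB/c had 8878 and 10114 CPM and those of NOD 8896 and 11777 CPM, against 2948 and 5990 CPM in the 6 and 7 cells of the B6 mice. The B6 values lay below all others in this type.
Ciliated-like cells reached 10657 and 13556 CPM in BALB/c (32 and 22 cells), and 3526 CPM in the 6 cells of B6 mouse 1 and 5848 CPM in the 7 cells of NOD mouse 1. Tuft-like cells had 1925 and 2481 CPM in B6 (114 and 91 cells), 5451 and 5831 CPM in BALB/c (120 and 175 cells) and, in NOD, 6693 and 5975 CPM (7 and 11 cells). Here too the B6 mice stood apart, on many cells. The values of single tuft-like cells spread widely, with quartiles of 621.0 and 2236 CPM around a median of 1210 in B6, and of 1156 and 7595 CPM around 3071 in BALB/c.
In keratinocyte-like cells the B6 mice (3781 and 3293 CPM) lay between the BALB/c mice (2777 and 5296 CPM), and the NOD mice were higher (5868 and 5965 CPM). Aire-positive cells of B6 had 1303 and 3099 CPM, those of BALB/c 2811 and 4298 CPM and those of NOD 6503 and 7209 CPM, so that NOD lay above both other strains. Microfold-like cells (1167 and 1609 CPM in B6) and neuroendocrine-like cells (1490 and 1113 CPM in B6) were among the lowest in B6.

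**Figure D2:**
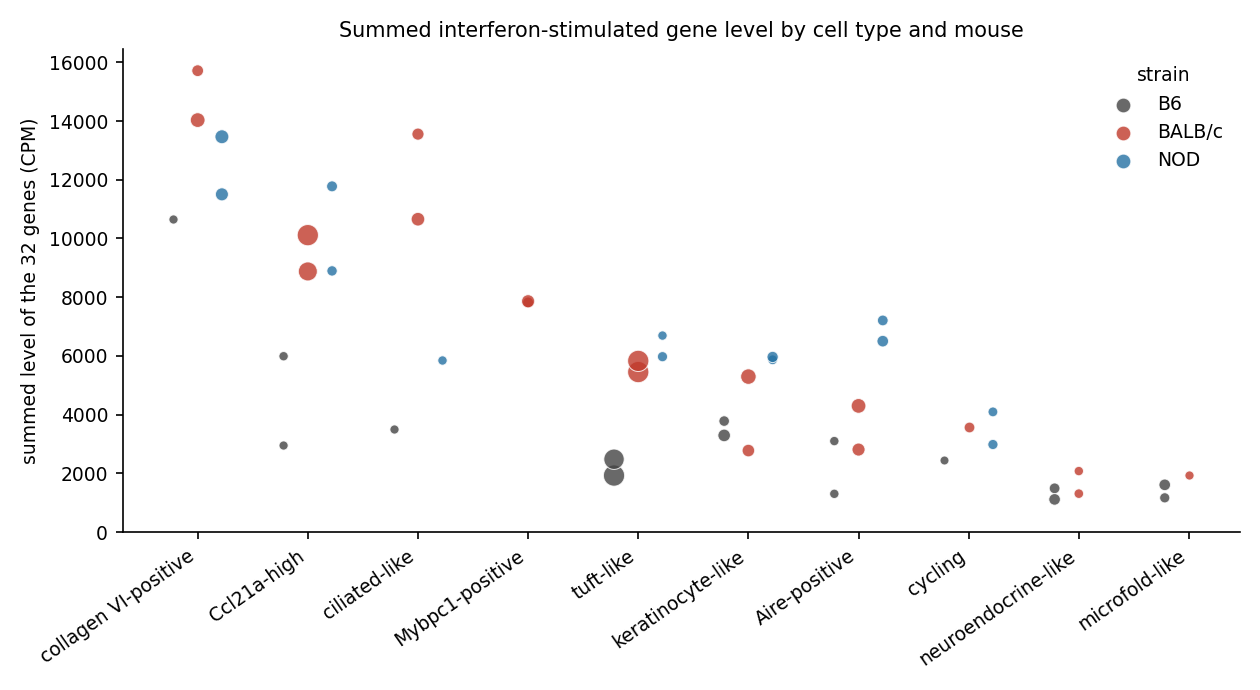
Summed level of the 32 genes in CPM (y axis, from 0) by cell type, 1 point per mouse with at least 5 cells of the type and larger points for more cells. The tuft-like cells of the B6 mice sit at 1925 and 2481 CPM and those of the 4 other mice between 5451 and 6693 CPM.

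Differences between cell types were tested on sums of at least 10 cells per type and mouse (28 sums, 11971 genes, edgeR quasi-likelihood with Benjamini-Hochberg adjustment), each type against the mean of the other types of its strain. Fewer cells of a state within a type and less RNA per cell cannot be told apart in such sums. The p-values rest on a spread pooled over all types and strains, with 2 mice a strain that share 1 library. By edgeR, sums of the same mouse were treated as independent, and only limma took the mouse as a block. Beside each count stands the share of all tested genes called in the same direction.

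In BALB/c, with 7 types, 23 of the 32 members were higher in collagen VI-positive cells (7.84% of all genes were), at a median log2 difference of 1.22 against -0.07 over all genes. All 4 Ifit genes, all 3 OAS genes and all 3 sensors were among them. Ifit3 rose by 3.22 (SE 0.33, adjusted p = 1.19e-06, edgeR), Ifi44 by 2.24 (SE 0.24, adjusted p = 6.42e-07, edgeR), the sensor Ddx58 by 1.88 (SE 0.20, adjusted p = 2.55e-07, edgeR) and Isg15 by 1.12 (SE 0.22, adjusted p = 0.00108, edgeR) on the log2 scale. Ifi27, of the same family as Ifi27l2a, was the only member lower there (-2.66, SE 0.57, adjusted p = 0.00422, edgeR; 3.25% of all genes were lower). Without BALB/c mouse 1 the 23 became 11, and without BALB/c mouse 2 they became 17.
Ccl21a-high cells had 13 members higher (9.79% of all genes) and Ifi27 lower (4.59%), at a median of 0.60 against 0.00. Ifit2, which binds RNA like its relatives, had the largest of these differences (2.71, SE 0.45, adjusted p = 1.63e-04, edgeR). The 13 became 8 without BALB/c mouse 2, and 9 without mouse 1.
Ciliated-like cells had 15 members higher (21.8% of all genes), at a median of 0.78 against 0.00. Ifi27 led them (3.31, SE 0.31, adjusted p = 6.54e-08, edgeR), followed by Ifit3b, Ifit3 and Bst2, the tetherin that holds budding virions at the cell surface (2.52, SE 0.23, adjusted p = 8.25e-09, edgeR).

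The Aire-positive, keratinocyte-like and tuft-like cells of BALB/c mostly lay lower. Aire-positive cells had 17 members lower (8.25% of all genes), at a median of -1.04 against 0.03, among them all 3 OAS genes and all 3 transcription factors, and keratinocyte-like cells had 15 lower (15.5%). The 17 became 7 and 6 when BALB/c mouse 1 or 2 was left out. In tuft-like cells 13 were lower (14.3%) and 3 were higher (22.3%): Igtp, Ifi27 and Rsad2 (viperin, an antiviral radical enzyme). Ifit1 was the only member called in Mybpc1-positive cells, and it was lower (2.05% of all genes). The summed level of these cells was not low. It was 7821 and 7862 CPM in the BALB/c mice (15 and 29 cells), against 5451 and 5831 CPM in tuft-like cells. In the NOD mice it was 10085 and 10273 CPM, on 4 and 3 cells.
By level, 22 of the 32 members were highest in collagen VI-positive cells of BALB/c, 8 in ciliated-like cells and 2, Igtp and Rsad2, in tuft-like cells. For 16, 3 and 2 of these, both mice lay above both mice of the next type. These counts were made over the members only. Without the share of all genes they show no excess.

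Depth moved with these differences in part. In BALB/c the median cell held 9847 and 10946 UMIs in collagen VI-positive, 8474 and 7310 in Ccl21a-high, 19989.5 and 20719 in ciliated-like and 21996.5 and 24125 in Aire-positive cells. The ciliated-like cells were thus deep and high in members, the Aire-positive cells deep and low. Myeloid and dendritic markers summed to 45.1 and 30.6 CPM in the collagen VI-positive cells and to 1197.6 and 405.1 CPM in the Aire-positive ones. Fibroblast markers summed to 40.8 to 171.5 CPM in collagen VI-positive, 28.2 to 75.1 in Ccl21a-high, 13.7 to 52.8 in Aire-positive and 0 to 5.6 in ciliated-like cells. For pericyte markers the sums were, in the same order, 437.8 to 537.9, 544.8 to 600.5, 396.3 to 473.6 and 0 to 22.3 CPM. The part of depth and of these markers was not tested.

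Single members differed in where they were read. In the following, the values of each gene stand in the order B6 mice 1 and 2, BALB/c mice 1 and 2, NOD mice 1 and 2. Ifit3 in tuft-like cells was at 0.69, 0, 0, 3.69, 0 and 0 CPM, against 285 CPM in the collagen VI-positive cells of B6 mouse 2, 415 and 247 CPM in those of BALB/c and 357 and 621 CPM in those of NOD. Its neighbour Ifit1 was at 59.3, 53.2, 107, 124, 237 and 177 CPM in tuft-like cells. Ifit1 was thus read in the tuft-like cells of every mouse, where Ifit3 was near 0.
Iigp1, an immunity-related GTPase that attacks vacuoles of parasites, was at 4.83, 1.499, 4.35, 40.2, 0 and 3.54 CPM in tuft-like cells. In collagen VI-positive cells it was at 339, 668.0, 666, 583 and 729 CPM in B6 mouse 2, BALB/c 1 and 2 and NOD 1 and 2. Igtp, a GTPase of the same family, did not show this gap in BALB/c, with 125 and 127 CPM in tuft-like cells and 122 and 75.4 CPM in collagen VI-positive cells. Bst2 reached 2184 and 2093 CPM in the ciliated-like cells of BALB/c, against 441 CPM in B6 mouse 1 and 914 CPM in NOD mouse 1. It was 1052 and 890.4 CPM in the collagen VI-positive cells and 176 and 197 CPM in the tuft-like cells of BALB/c.

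**Figure D3:**
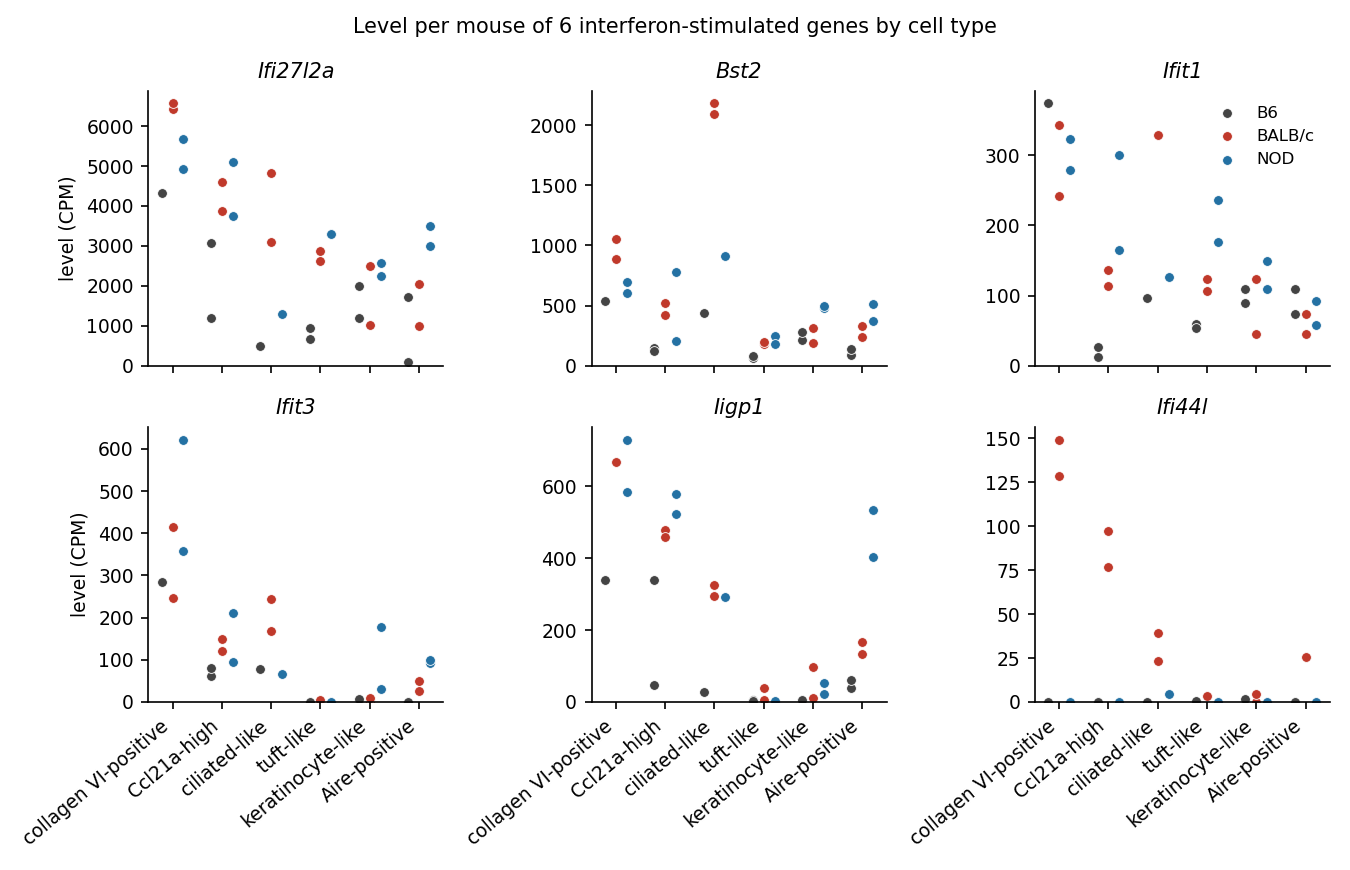
Level in CPM (y axes, from 0) of 6 members by cell type, 1 point per mouse with at least 5 cells, coloured by strain. In tuft-like cells Ifit3 lies between 0 and 3.69 CPM and Iigp1 between 0 and 40.2 CPM, while Ifit1 lies between 53.2 and 237 CPM there.

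In B6, with 4 types of at least 10 cells in both mice, keratinocyte-like cells had 10 members higher (15.6% of all genes), at a median of 0.75 against 0.00. These included Isg15, Ifit1, Bst2, Ifi27l2a, Ifi44 and Rsad2. The 10 became 6 without B6 mouse 2. Tuft-like cells had 6 higher (19.5%), with all 3 transcription factors among them, and 2 lower, Isg15 and Zbp1 (11.4%). Microfold-like cells had 3 higher (13.1%) and 2 lower (8.8%), both below the share of all genes. Neuroendocrine-like cells had Iigp1 higher (11.3%) and 11 members lower (7.09%).
Types with few B6 cells, the collagen VI-positive, Ccl21a-high and ciliated-like ones, could not enter this test, so it is not set against that of BALB/c. Among these 4 B6 types, 14 members were highest in keratinocyte-like, 7 in tuft-like, 6 in microfold-like and 5 in neuroendocrine-like cells. For 7, 4, 1 and 3 of these, both mice lay above both mice of the next type. Here too the share of all genes was not counted, so no excess is shown.

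In NOD, with 3 types, collagen VI-positive cells had Ifit3 and Ifit3b higher (0.535% of all genes), and the median of the members was 0.69 against 0.12. Aire-positive cells had Ifi27 higher (9.65%) and 10 members lower (4.3%), at a median of -0.76 against 0.13. No member was called in Ccl21a-high cells by edgeR (4 at an unadjusted p under 0.05), by limma (0) or, with 1 exception, by DESeq2 (1 higher). By level, 18 members were highest in collagen VI-positive, 11 in Ccl21a-high and 2 in Aire-positive cells, and Ifi44l was at 0 in all 3. For 9, 1 and 1 of these, both mice lay above both mice of the next type, again with no count over all genes beside them.

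**Figure D4:**
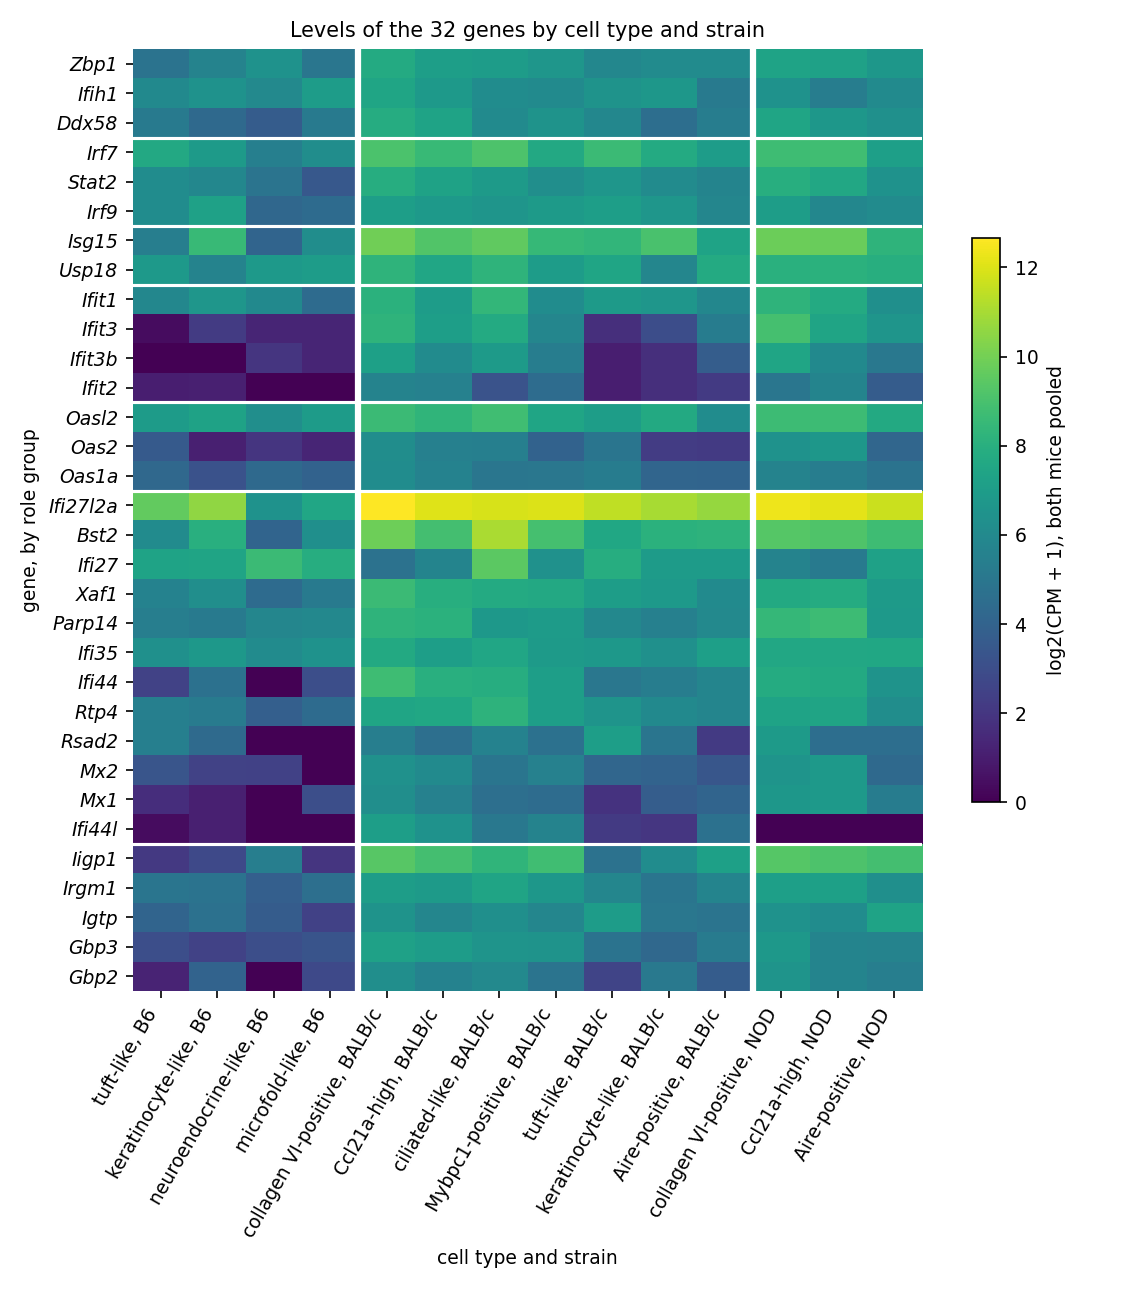
Levels of the 32 genes (rows, by role) in each cell type and strain with at least 10 cells in both mice (columns), as log2(CPM + 1) with the mice pooled. Ifit3 lies near 0 in tuft-like cells and high in collagen VI-positive cells, and Ifi44l is at 0 in all 3 NOD columns.

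The strains were then compared on the sums of all gated epithelial cells of a mouse (15126 genes tested, edgeR, 6 mice). Against B6, 28 of the 32 members were higher in BALB/c, against 5.22% of all genes, at a median log2 difference of 1.46 against 0.00. For 31 members both BALB/c mice lay above both B6 mice (32.7% of all genes), for 0 both lay below (27.8%), and Ifi27 overlapped. In NOD, too, 28 were higher than in B6, against 13.9% of all genes, at a median of 1.496 against -0.03. Both comparisons use the same B6 mice. For 29 members both NOD mice lay above both B6 mice (28.7% of all genes), for Ifi27 and Ifi44l both lay below (38.6%), and Ifih1 overlapped. Without BALB/c mouse 2 the first 28 became 18, and leaving out any other mouse gave 21 to 28. Ifit2, Igtp, Irf7, Irf9, Mx2, Oas1a, Oasl2, Rsad2, Stat2, Usp18 and Zbp1 lost their call in at least 1 alternative, with adjusted p up to 0.191, and in NOD Gbp2, Igtp and Rsad2 did, with adjusted p up to 0.539 (edgeR, DESeq2).

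Isg15 was at 106, 123, 379, 429.5, 427 and 501 CPM. Both B6 mice lay below the other 4, and the log2 difference was 1.80 in BALB/c (SE 0.15, adjusted p = 0.00157, edgeR) and 2.09 in NOD (SE 0.15, adjusted p = 3.63e-04, edgeR). Usp18, its partner, differed by 0.55 and 0.76.
Of the transcription factors, Irf7, which amplifies interferon production, was at 125, 157, 329, 305, 218 and 274 CPM. It was higher by 1.14 in BALB/c (SE 0.16, adjusted p = 0.00724, edgeR) and by 0.88 in NOD (SE 0.16, adjusted p = 0.00765, edgeR). Stat2 was higher in both strains and Irf9 in BALB/c (0.66), while Irf9 in NOD differed by 0.38 and was not called (adjusted p = 0.0837, edgeR).
Among the sensors, Ddx58 (RIG-I) and Zbp1, which senses Z-form nucleic acids, were higher in both strains. Ifih1 (MDA5), which senses long double-stranded RNA, was at 61.6, 79.5, 87.8, 85.4, 60.1 and 73.2 CPM. The NOD and B6 mice overlapped, and neither difference was called (0.27 and -0.01, adjusted p = 0.327 and 0.979, edgeR).

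All 4 Ifit genes were higher in both strains. Ifit1 was at 63.9, 67.0, 128, 120.2, 137 and 133 CPM, a difference of 0.90 in BALB/c (SE 0.11, adjusted p = 0.00497, edgeR) and 1.12 in NOD (SE 0.11, adjusted p = 0.00108, edgeR). Ifit3 was at 10.5, 11.3, 69.2, 54.8, 126 and 138 CPM, and Ifit3b at 2.55, 3.27, 36.9, 27.6, 44.5 and 47.5 CPM. The 2 genes separated the strains far more than Ifit1 did: Ifit3 differed by 2.47 and 3.67, Ifit3b by 3.42 and 4.04. Ifit3 shares 14.9% of the 50-base windows in the last 500 bases of its transcript with Ifit3b, so reads could be split between them.
The OAS enzymes make the activator of RNase L, which degrades RNA. Oasl2 was at 136, 132, 200.2, 178, 222 and 238 CPM, a difference of 0.48 in BALB/c (SE 0.11, adjusted p = 0.0369, edgeR) and 0.86 in NOD (SE 0.11, adjusted p = 0.00234, edgeR). Oas1a and Oas2 were higher in both strains too, but 56.1% of the end of Oas1a is shared with Oas1g.

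Of the GTPases, Iigp1 was at 25.2, 27.1, 195, 199, 350.3 and 271 CPM, higher by 2.89 in BALB/c (SE 0.17, adjusted p = 6.39e-04, edgeR) and 3.65 in NOD (SE 0.17, adjusted p = 1.43e-04, edgeR). The 3 strains did not overlap in this gene. Gbp2, a guanylate-binding protein, was at 3.83, 12.2, 23.7, 24.1, 37.6 and 37.5 CPM and was called in NOD (2.29, SE 0.43, adjusted p = 0.0116, edgeR) but not in BALB/c (1.53, SE 0.42, adjusted p = 0.0716, edgeR). Gbp3, Igtp and Irgm1 were higher in both.
Of the 12 other effectors, 10 were higher in each strain. Ifi27l2a was at 769, 879, 2617, 3179, 3099 and 3210 CPM, and Bst2 at 121, 160.4, 518, 431, 493 and 447 CPM. Ifi27l2a was higher by 1.79 in BALB/c (SE 0.15, adjusted p = 0.00182, edgeR) and 2.01 in NOD (SE 0.15, adjusted p = 4.56e-04, edgeR). Ifi44, at 15.6, 16.96, 124, 98.25, 94.9 and 95.9 CPM, was higher by 2.74 and 2.62, and Mx1, which traps viral nucleocapsids, by 2.63 and 3.49. Ifi27 was at 211, 254, 168, 221, 180.2 and 134 CPM and was not called (-0.28 and -0.49, adjusted p = 0.462 and 0.136, edgeR).

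NOD and BALB/c differed little on these sums. Ifit3 (1.19, SE 0.14, adjusted p = 0.0056, edgeR) and Iigp1 (0.76, SE 0.15, adjusted p = 0.026, edgeR) were higher in NOD (4.11% of all genes), and Ifi44l was lower (5.57%). The median over members was 0.22 against -0.02 over all genes, and in 11 members both NOD mice lay above both BALB/c mice (21.4% of all genes), in 10 below (37.6%) and 11 overlapped. The Iigp1 call ended without NOD mouse 1 (adjusted p = 0.0717, edgeR), BALB/c mouse 1 (0.149) or BALB/c mouse 2 (0.101).

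**Figure D5:**
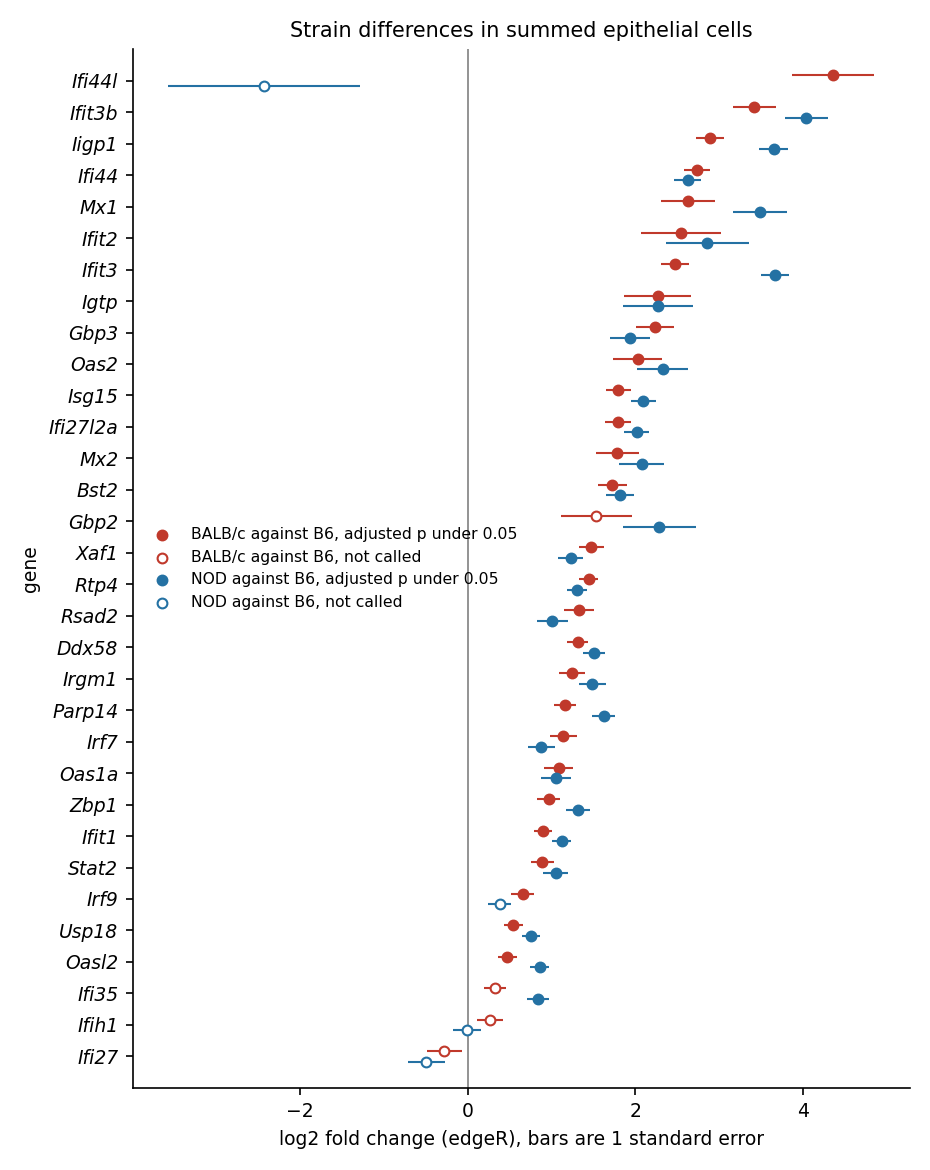
Log2 fold change of each member (x axis, edgeR) in BALB/c and in NOD against B6 on epithelial sums, with bars of 1 standard error. Filled points have an adjusted p under 0.05: 28 members in each strain, with Ifi44l at 4.36 in BALB/c and -2.42, not called, in NOD.

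The epithelial sums mix the level within types with the share of each type. The sums were also computed with the make-up of the cell types held fixed, as a description added after the values were seen. The BALB/c sum was 6657 CPM over the 11 types that B6 also had, against 2464 CPM in B6, a ratio of 2.70. BALB/c levels weighted by the B6 shares of UMIs gave 5113 CPM, a ratio of 2.08, and B6 levels weighted by the BALB/c shares gave 3288 CPM, a ratio of 1.33. For NOD the ratio to B6 was 2.67 over 9 shared types, 2.25 with NOD levels at the B6 make-up and 1.60 with B6 levels at the NOD make-up. Between NOD and BALB/c all 3 ratios lay between 1 and 1.05. These B6 levels rest on few cells in several types: 4 Mybpc1-positive, 7 cycling and 8 collagen VI-positive cells, 1 of the last of doubtful hashtag. The ratios carry no measure of spread, and the part of levels and of make-up was not tested.

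Within a type, BALB/c and B6 could be tested in tuft-like and keratinocyte-like cells. In tuft-like cells 5 members were higher in BALB/c (0.952% of all genes), and 31 of the 32 differences were positive, at a median of 1.02 against 0.00 over all genes. Isg15 was at 52.4 and 30.7 CPM in B6 against 308 and 338 CPM in BALB/c (2.91, SE 0.34, adjusted p = 7.54e-06, edgeR). This call held in all 14 alternatives, with an adjusted p of at most 0.00115.
Igtp was at 11.7 and 20.98 CPM in B6 and 125 and 127 CPM in BALB/c (2.90, SE 0.54, adjusted p = 0.00564, edgeR). Ifi44 was at 2.07 and 7.49 against 26.6 and 35.02 CPM (2.64, SE 0.49, adjusted p = 0.00402, edgeR). Gbp3 was at 10.3 and 3.75 against 23.2 and 30.1 CPM (1.85, SE 0.47, adjusted p = 0.0349, edgeR), and Xaf1, an antagonist of apoptosis inhibitors, at 45.5 and 49.5 against 123 and 136 CPM (1.41, SE 0.30, adjusted p = 0.0101, edgeR). In all 5 both BALB/c mice lay above both B6 mice, which adds no support because the 5 were picked by their calls on these sums.
The 5 became 2 without B6 mouse 1, B6 mouse 2 or BALB/c mouse 2, and 3 without BALB/c mouse 1, with adjusted p up to 0.408. Tuft-like cells also differed in median depth (8932 and 10837 UMIs per cell in B6, 13710 and 17573 in BALB/c) and in median mitochondrial share (5.31% and 5.21% against 3.72% and 3.25%), and in myeloid markers, whose sum was 378.6 to 411.4 CPM in B6 and 203.4 to 276.8 CPM in BALB/c. The B or plasma markers, mainly Jchain, summed to 142.8 and 1315.2 CPM in B6 and 1214.7 and 1313.1 CPM in BALB/c. The part of these in the result was not tested.

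In keratinocyte-like cells no member was called by edgeR (0.551% of all genes were higher), with 5 at an unadjusted p under 0.05. DESeq2 called 1 and limma 0. The median was 0.44 against 0.02. Isg15 was at 326 and 395 CPM in B6 and 431 and 559 CPM in BALB/c, so the B6 keratinocyte-like cells lay near the level of the BALB/c tuft-like cells. Its strain difference was smaller than in tuft-like cells by 2.46 on the log2 scale (SE 0.46, adjusted p = 0.0152, edgeR), the only member among 0.117% of all genes so called. That call ended without B6 mouse 2 (-1.92, adjusted p = 0.156), BALB/c mouse 1 (-2.30, adjusted p = 0.23) or BALB/c mouse 2 (-2.71, adjusted p = 0.115), all by edgeR.
Over the mean of both types 6 members were higher in BALB/c (0.911% of all genes): Isg15, Gbp3, Iigp1, Ifi44, Xaf1 and Irf7.

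NOD and BALB/c could be tested within 3 types. In Aire-positive cells 31 of the 32 differences were positive, at a median of 0.82 against -0.01, and Oasl2 and Igtp were called higher in NOD (0.368% of all genes). Oasl2 was at 43.3 and 89.3 CPM in BALB/c, against 195 and 225 CPM in NOD (1.60), and its call ended without BALB/c mouse 1 (adjusted p = 0.285, edgeR), NOD mouse 1 (0.112) or NOD mouse 2 (0.280). Igtp was at 21.7 and 33.3 CPM in BALB/c, against 255 and 41.8 CPM in NOD. Its high value came from NOD mouse 1, without which the difference was 0.51 (adjusted p = 0.798, edgeR), and its call also ended when BALB/c mouse 1 (adjusted p = 0.805, edgeR), BALB/c mouse 2 (0.366), B6 mouse 1 (0.0864) or B6 mouse 2 (0.0888) was left out.
In collagen VI-positive and Ccl21a-high cells no member was higher in NOD by edgeR, DESeq2 or limma (5 and 6 members had an unadjusted p under 0.05 in edgeR, in either direction), beside 0.309% and 0.117% of all genes. The medians were 0.04 and 0.15 against 0.00 and -0.22. Whether the difference in Aire-positive cells exceeded that in the other types was tested for each member, and none was called by edgeR, DESeq2 or limma. By edgeR 7 members had an unadjusted p under 0.05 against collagen VI-positive cells and 6 against Ccl21a-high cells.

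NOD and B6 shared types only when sums of at least 5 cells were used, an alternative added after the data were seen. In Aire-positive cells 9 members were higher in NOD (0.813% of all genes), at a median of 2.07, or 1.84 with the 5 members that had 0 UMIs in a strain set at their bound, against 0.12 over all genes. Isg15 was at 50.5 and 77.7 CPM in B6 and 260.0 and 353 CPM in NOD (2.41, SE 0.39, adjusted p = 6.32e-04, edgeR). Irf7 was at 5.62 and 31.1 against 119 and 167 CPM (3.21, SE 0.53, adjusted p = 6.32e-04, edgeR). These 2 calls held in all 9 alternatives.
Bst2 was at 89.9 and 140 CPM in B6 and 368 and 509 CPM in NOD, Ifi44 at 0 and 15.5 against 81.4 and 99.9 CPM, and Rtp4, a chaperone with antiviral activity, at 0 and 7.77 against 65.5 and 86.0 CPM. Parp14, an ADP-ribosyltransferase, was at 16.8 and 62.1 against 83.1 and 144 CPM, and Xaf1 at 5.62 and 54.4 against 110 and 135 CPM. Igtp was at 16.8 and 7.77 against 255 and 41.8 CPM. Gbp2 had 0 UMIs in B6 and 31.8 and 53.4 CPM in NOD, at least 4.21-fold higher with the floor of 3 counts over both B6 mice. The groups did not overlap in any of the 9, but these were picked by their calls on the same sums, so this adds no support.
Each B6 sum here held 7 cells, and the 9 became 2 without B6 mouse 1, 3 without NOD mouse 2, and 6 when either BALB/c mouse was left out. The other 7 members lost their call in 2 to 7 of the 9 alternatives, with adjusted p up to 0.445 (edgeR, DESeq2 and limma). Other measures moved with this comparison: the 10 myeloid or dendritic markers summed to 477.3 and 209.7 CPM in B6 and 806.7 and 497.2 CPM in NOD, with 6 and 8 of the 10 at 0 in B6 and 4 in each NOD mouse. Laptm5 led the sum in 3 of these mice and Lyz2 in NOD mouse 1, and Flt3 and Fcer1g were at 0 in all 4. The 3 pericyte markers summed to 769.0 to 3554.8 CPM in B6 and 592.6 to 738.8 CPM in NOD. Median depth was 27242 and 18422 UMIs per cell in B6 and 33688 and 29159.5 in NOD. The part of these in the result was not tested.

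Isg15 and Irf7 were also higher in keratinocyte-like and in Ccl21a-high cells of NOD. Keratinocyte-like cells had 5 members higher (0.575% of all genes), at a median of 1.04 against 0.00. Isg15 was at 326 and 395 CPM in B6 and 772 and 854 CPM in NOD (1.25), Irf7 at 83.8 and 141 against 323 and 326 CPM (1.59) and Ifi44 at 28.9 and 23.8 against 123 and 78.4 CPM (2.00). Ifit3 was at 0 and 5.95 against 178 and 30.9 CPM, and Ifit3b, with 0 UMIs in B6, at 51.7 and 6.19 CPM, at least 6.78-fold higher. In these keratinocyte-like cells myeloid or dendritic markers summed to 132.8 to 190.7 CPM in B6 and 169.2 to 1696.5 CPM in NOD. B or plasma markers summed to 28.9 to 4305.8 CPM in B6 and 9.7 to 18.6 CPM in NOD, and the part of either list was not tested.
Ccl21a-high cells had 4 higher (0.14% of all genes), at a median of 1.55 (1.48 with 4 members at their bound) against 0.00. Isg15 was at 267 and 297 CPM in B6 and 744 and 956 CPM in NOD, Irf7 at 97.1 and 122 against 348 and 487 CPM, Ifit1 at 12.1 and 27.0 against 301 and 165 CPM and Parp14 at 97.1 and 122 against 443 and 395 CPM. In tuft-like cells Isg15 (237 and 226 CPM in NOD, a difference of 2.36) and Ifit1 (237 and 177 CPM, 1.75) were higher (1.57% of all genes), at a median of 0.82 against -0.25. The Ifit1 call ended without NOD mouse 1 (adjusted p = 0.0789, edgeR) or NOD mouse 2 (0.0545). All 4 differences in Ccl21a-high cells and all 5 in keratinocyte-like cells lost their call in at least 3 of 9 alternatives, with adjusted p up to 0.531 (edgeR). NOD tuft-like cells numbered 7 and 11.
The NOD difference was not shown to depend on the type: no member was called for a difference from tuft-like cells by edgeR in Aire-positive, keratinocyte-like or Ccl21a-high cells (7, 5 and 8 members at an unadjusted p under 0.05). DESeq2 called 1 member lower in Aire-positive cells, and limma 1 higher and 1 lower.

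Ifi44l stood apart from the other members. The gene, an antiviral effector next to Ifi44 on chromosome 3, was at 2.24, 0.60, 32.3, 27.0, 0.46 and 0 CPM in the epithelial sums. It had 428 UMIs in BALB/c, 9 in B6 and 1 in NOD. It was read in 26.2% of the 832 BALB/c cells, 0.81% of the 370 B6 cells and 0.48% of the 207 NOD cells. Ifi44, in contrast, was at 94.9 and 95.9 CPM in NOD and did not differ by the test from BALB/c (-0.12, adjusted p = 0.640, edgeR).
The level in BALB/c was 131 times that in NOD (95% exact counting interval 23.3 to 5170) and 21 times that in B6 (11.0 to 46.3). Of the 9 B6 UMIs, 8 came from 2 cells of doubtful hashtag, with 56 and 27 UMIs of H2-Ea and hashtag shares of 81.5% and 82.5%. H2-Ea, a class II gene, had 13411 UMIs in BALB/c, 265 in B6 and 53 in NOD. Without the 4 doubtful cells the ratio to B6 was 185 (33.1 to 7340). These intervals cover counting error only.
Within types it was at 149 and 128 CPM in collagen VI-positive, 97.1 and 76.9 CPM in Ccl21a-high, 39.1 and 23.4 CPM in ciliated-like, 25.7 and 25.5 CPM in Aire-positive and 3.38 and 3.38 CPM in tuft-like cells of BALB/c. The order was not that of the summed level, in which tuft-like cells lay above Aire-positive ones. NOD had 0 UMIs in the collagen VI-positive, Ccl21a-high and Aire-positive cells, so that BALB/c was at least 33.6-fold, 4.92-fold and 8.49-fold higher. Ifi44l was the only member lower in NOD in each (0.167%, 0.0835% and 0.459% of all genes). The Ccl21a-high call ended when any BALB/c or NOD mouse was left out, and the Aire-positive one without NOD mouse 1 (adjusted p = 0.0571, edgeR).

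Of the interferon genes themselves, Ifna2, Ifna4, Ifnb1, Ifne, Ifnl2 and Ifnl3 had 0 UMIs in the gated epithelial cells of every mouse. Ifng had 61 UMIs in 1 Aire-positive cell of BALB/c and 1 UMI in NOD, and Ifnk, an epithelial type I interferon, had 1 UMI in BALB/c and 5 in NOD. None could be tested.
Of the 6 receptor genes, Ifnlr1, the specific chain of the receptor for type III interferons, was higher in both strains on the epithelial sums. It was at 1.92, 4.76, 13.7, 16.2, 15.1 and 18.3 CPM, a difference of 2.12 in BALB/c (SE 0.39, adjusted p = 0.0188, edgeR) and 2.38 in NOD (SE 0.41, adjusted p = 0.00649, edgeR). Ifnar2, Ifngr1 and Ifngr2 were also higher in NOD, by 0.53 to 0.84, and Ifnar1 and Il10rb were called in neither.
Among the signalling genes, the kinases Jak1, Jak2 and Tyk2 were called in neither strain. Socs3, a feedback inhibitor, was higher in BALB/c, and Socs1 and the DNA sensor Cgas were higher in NOD. Irf1, a transcription factor of the interferon gamma response, was lower in NOD than in B6 (-0.62) and than in BALB/c (-0.67).
Of 45 further interferon-stimulated genes, 43 were tested. Against B6, 16 were higher in BALB/c (5.22% of all genes) and 2 lower (5.06%), at a median of 0.84, and 26 were higher in NOD (13.9%) and 1 lower (14.4%), at a median of 0.98. In collagen VI-positive cells of BALB/c 27 of the 42 tested were higher than in the other types (7.84% of all genes), at a median of 1.16, and in Aire-positive cells 20 were lower (8.25%). The share higher in BALB/c than in B6 was thus smaller here, 16 of 43, than among the 32 members, 28 of 32, a difference that was not tested.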

How the data were processed

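The authors deposited UMI counts per gene and barcode, made with Cell Ranger 7.0.0 on mm10 per the submitters' processing notes, and counts of hashtags in the same matrix. Other filters on cells are not given in the sources used here. Barcodes with at least 500 genes and under 15% mitochondrial UMIs were kept. A barcode went to a mouse when 1 of the 6 hashtags held at least 80% of at least 100 hashtag UMIs, which removes most doublets between mice. No doublet caller was run, and cells that passed several gates were left out. Gates needed 4 markers of a lineage (3 for later gates, 2 for collagen VI and epithelial genes), each with at least 2 UMIs. The list for Mybpc1-positive cells (55 cells) held only 1 marker. These thresholds were set after marker counts were seen.

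Counts were summed per mouse, or per cell type and mouse (at least 10 cells, or 5 as an added alternative), and tested with edgeR 4.0.16 (quasi-likelihood, TMM, filterByExpr) in R 4.3.3, with DESeq2 1.42.0 and limma 3.58.1 as alternatives. A call is a Benjamini-Hochberg adjusted p under 0.05 over all genes tested. The fit was tested on simulated data. Any of the 32 genes may be named, with values in every mouse for those with the most UMIs in each role and those called between strains within a cell type. The 32 genes, markers and pathway lists were chosen with earlier results of these data known. Part of the pathway list is not reported here.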

Additional observations from a re-analysis of the deposited data

Results flagged for a closer look

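The BALB/c difference from B6 in Isg15 was itself different between cell types. It was smaller in keratinocyte-like than in tuft-like cells by a log2 value of -2.46 (SE 0.46, adjusted p = 0.0152, edgeR interaction term), with both BALB/c mice above both B6 mice in each type. Over 14 alternatives the value lay between -3.10 and -1.92, and the call ended in 3 of them, without B6 mouse 2, BALB/c mouse 1 or BALB/c mouse 2 (adjusted p up to 0.23, edgeR).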

How the results depend on the processing

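No result reversed under any alternative run. On epithelial sums, the 28 members higher in BALB/c than in B6 lay between 18 and 28 when 1 mouse was left out. In the mean within cell types 6 were higher. That mean covers tuft-like and keratinocyte-like cells only, on smaller sums, and a smaller share of all genes was called in it. The 2 counts are thus not on 1 scale. The 28 of NOD against B6 stayed between 27 and 28. The 3 of NOD against BALB/c became 5 with DESeq2, 6 with no filter on low counts, and 2 to 4 with 1 mouse left out. With a replicate block the 3 counts were 26, 28 and 4. The replicate numbers are names in the labels and nothing there ties same-numbered mice of different strains to each other. Hashtag shares of at least 95% gave 23, 27 and 2.

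Within cell types, the 5 calls of BALB/c against B6, all in tuft-like cells, became 9 with DESeq2 (8 of them higher in tuft-like cells), 11 with limma and the mouse as a block, 13 with no filter and 8 with a stricter gate, and lay between 2 and 6 with 1 mouse left out. The 5 calls of NOD against BALB/c became 9 with no filter and 1 to 4 with 1 mouse left out. Among them the 2 higher in Aire-positive cells became 1 with limma, 5 with no filter, 1 without the doubtful cells and 0 to 1 with 1 mouse left out. The 20 calls of NOD against B6 became 34 with DESeq2 and 4 to 13 with 1 mouse left out, with 2 to 7 in Aire-positive cells. The single difference between strain effects became 5 with no filter and 2 with a stricter gate, and 0 to 1 with 1 mouse left out. The cause of these shifts was not tested.

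The 150 calls of a type against the others lay between 114 and 150 with 1 mouse left out. The members higher in BALB/c lay between 11 and 26 in collagen VI-positive, 8 and 12 in Ccl21a-high and 12 and 16 in ciliated-like cells, those lower in Aire-positive cells between 6 and 19, and those higher in B6 keratinocyte-like cells between 6 and 11. Leaving out a mouse leaves 1 sum in that arm, which is then assumed to vary like the other sums. Hashtag shares of 95% and the stricter gate left too few sums for some comparisons between types and for NOD against BALB/c within types, which have no value there.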
